A study of Mus musculus with 27 samples.

Results

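Polyadenylated RNA attached to chromatin was compared with polyadenylated RNA of the cytoplasm in primary mouse cortical neurons (mCtx) kept for 5 days in culture. The 6 libraries, 3 of chromatin and 3 of cytoplasm, were chosen by their cell type and fraction labels from 27 libraries in the series. The series fractionated 3 mouse cell types into chromatin, soluble nucleoplasm and cytoplasm, each as biological triplicates: the E14 embryonic stem cell line (mESC) cultured with LIF, a line of neural progenitors (mNPC) that the submitters established themselves and grew with EGF and FGF, and these untreated neurons, plated on poly-L-lysine. The labels give no genotype or strain for the neurons and no number of animals per replicate, and each of the other 2 cell types is 1 line. RNA longer than 200 nt was taken before selection on oligo-dT beads, and stranded libraries were sequenced as pairs of 100 bp.

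An mRNA precursor is made on chromatin, is spliced largely while it is still attached there, and reaches the cytoplasm after release and export. A polyadenylated RNA that stays on chromatin can be a nuclear noncoding RNA, an mRNA whose splicing or release is slow, or an mRNA that was just made. In neurons such retained transcripts are studied as a reserve that can be matured later. A fraction-to-fraction ratio gives the share of each gene in the RNA of its fraction, so that a change in where an RNA sits cannot be told apart from a change in the other RNAs of that fraction, and it gives no amount per cell. In bulk libraries like these, fewer cells of a type and less RNA per cell cannot be told apart.

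Library totals ran from 17651998 to 19331242 counts in chromatin and from 15607890 to 24537526 in cytoplasm. Levels are given as CPM, the counts of a gene per 1000000 counts of its library, after scaling by the TMM method, with which the median log2 fold change over all 18226 genes tested was 0.00. Relative transcript abundance (TPM), a second deposited unit that corrects for transcript length, is used to compare genes with each other. All 15 markers of cortical excitatory neurons reached 1 TPM in each of the 6 libraries, with sums of 3314 to 3374 TPM in chromatin and 5075 to 5600 TPM in cytoplasm. In each fraction 14 of 15 markers of inhibitory neurons did so (311 to 329 TPM in chromatin and 1037 to 1127 TPM in cytoplasm). The excitatory list includes genes of neurons in general, such as Tubb3, Map2 and Stmn2, so these sums do not give the proportion of the neuron types. The cultures also held transcripts of other cells. The 15 markers of progenitors and radial glia, many of which young neurons express too, summed to 895 to 966 TPM in chromatin and 1963 to 2848 TPM in cytoplasm, 13 astrocyte markers to 337 to 359 and 307 to 318 TPM, 13 oligodendrocyte lineage markers to 117 to 121 and 163 to 181 TPM, and 15 microglial markers to 59.1 to 75.6 and 73.2 to 95.6 TPM. Endothelial markers summed to 18.6 to 26.3 TPM in chromatin and 7.39 to 11.7 TPM in cytoplasm, and the pluripotency genes Pou5f1, Zfp42, Fgf4, Dppa3 and Utf1 were listed at 0 in cytoplasm. In chromatin Dppa3, Fgf4 and Utf1 were at 0, 1 of 9 pluripotency genes reached 1 TPM in all 3 libraries, and the 9 summed to 1.85 to 2.07 TPM. The sum for red blood cell genes was 28.4 to 33.8 TPM in chromatin and 2.79 to 3.40 TPM in cytoplasm. In chromatin 2 of these 7 genes reached 1 TPM in all 3 libraries, and Hbb-bs, Hbb-bt and Hbb-y were at 0. The part of these cells in the results below was not tested.

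Between chromatin and cytoplasm, 9223 of 18226 genes passed an adjusted p under 0.05 with a log2 fold change of at least 1 (50.6%; edgeR quasi-likelihood test, Benjamini-Hochberg adjustment). Of these, 4780 were higher in chromatin (26.2%) and 4443 were lower (24.4%). In 14133 genes (77.5%) all 3 libraries of one fraction lay above all 3 of the other. Each count of genes below is to be read against these shares. In TPM the split was different. Of 24419 genes, 8828 were called higher (36.2%) and 2028 lower (8.31%), so that 81.3% of calls were higher in TPM against 51.8% in counts. The median log2 fold change over these genes in TPM was 0.59. Taken as log2(mean TPM + 1) for the genes tested in counts, it was 0.36.

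The largest changes are ranked here among called genes with a mean of at least 10 CPM in the higher fraction and no overlap between the fractions. Genes with a predicted or pseudogene symbol, or sharing a strand and span with another tested gene, were left out. In this ranking the largest excess on chromatin belonged to Xist, the noncoding RNA that coats and silences the inactive X chromosome (chrX:103460375-103483217, mm10, minus strand). Its 3 chromatin libraries held 766, 1971 and 5623 CPM and the cytoplasmic libraries of the same replicate numbers held 2.12, 4.18 and 12.8 CPM. Its log2 fold change was 8.73 (SE 0.82, adjusted p = 2.1e-09). The replicates differed severalfold in both fractions, and the third was the highest in both, but the fractions did not overlap. Without the third chromatin library the log2 fold change was 7.71, and without the third cytoplasmic library it was 9.76. Each of these fits dropped a library but kept its same-numbered partner, so neither gives the ratio within pairs. Meg3, a maternally expressed noncoding RNA of the imprinted Dlk1-Dio3 domain (chr12:109541001-109571726, plus strand), was also higher. It held 8881, 8737 and 8678 CPM in chromatin against 400, 379 and 570 CPM in cytoplasm (log2 fold change 4.28, SE 0.34, adjusted p = 1.4e-11), and at 7106 TPM it had the highest mean TPM in chromatin of all genes called higher. The level in the soluble nucleoplasm lay between, at 1592, 1731 and 1677 CPM. Reads of Meg3 overlap those of the microRNA loci Mir1906-1 and Mir770.

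Protein-coding genes followed Xist in this ranking, led by the collagen genes Col7a1 and Col11a2, with up to 119 and 66 exons per annotated transcript. Ahnak2 and Ssh3, which came next, had up to 7 and 14. Col7a1, which encodes the anchoring fibril collagen (chr9:108953586-108984875, plus strand), held 22.5, 23.1 and 21.6 CPM in chromatin against 0.0683, 0.101 and 0.182 CPM in cytoplasm, where its 3 libraries together counted 7 reads. The fitted log2 fold change was 7.42 (SE 0.38, adjusted p = 6.2e-15). Col11a2, a fibrillar collagen chain, held 78.7, 90.2 and 88.0 CPM against 0.614, 0.705 and 1.19 CPM (6.63, SE 0.38). The fractions did not overlap in either collagen, and the rule for naming the 24 genes required that. Ahnak2, a giant scaffold protein, followed at 6.57 (SE 0.87), with 43.7 to 48.4 CPM against 0.341 to 0.593 CPM, then the cofilin phosphatase gene Ssh3 at 5.91 (SE 0.28), with 127 to 146 CPM against 1.37 to 2.87 CPM. The remaining 7 of the 12 genes with the largest excess were Kcp (5.49), Itgb1bp2 (5.41), Stac3 (5.41), Tmem30c (5.40), Fam228a (5.29), Catsperg1 (5.23) and Lgals4 (5.17). Several of these have known roles in muscle, sperm or gut, as Stac3 in muscle excitation-contraction coupling, Catsperg1 in the sperm calcium channel and Lgals4 as a gut galectin. None of their cytoplasmic libraries held more than 1.1 CPM.

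At the opposite end of this ranking, Tmsb10, which encodes a thymosin that binds actin monomers (chr6:72957347-72958748, minus strand), held 117, 148 and 141 CPM in chromatin against 3453, 3588 and 3209 CPM in cytoplasm (log2 fold change -4.66, SE 0.27, adjusted p = 4.3e-14). Its relative Tmsb4x held 139, 153 and 154 CPM against 3742, 3873 and 2984 CPM (-4.57, SE 0.51). The ferritin heavy chain gene Fth1, an iron store, held 66.2, 69.7 and 66.6 CPM against 1329, 1887 and 1650 CPM (-4.59, SE 0.23). In all 3 genes even the lowest cytoplasmic library stood far above the highest chromatin library. The others of the 12 were Mtpn (-4.32), the surface glycoprotein gene Cd24a (-4.00), the neuropeptide gene Sst (-3.93), the cytochrome c oxidase assembly gene Coa5 (-3.88), the glycosyltransferase gene Alg10b (-3.86), the calcineurin regulator gene Rcan2 (-3.85), Rpl31 (-3.84), the mitochondrial import gene Timm8b (-3.82) and Zfp706 (-3.79). Of the 24 genes of both ends, 7 overlap a gene on the opposite strand (Xist, Kcp, Fam228a, Catsperg1, Rcan2, Rpl31 and Timm8b), and whether counting used the strand is not given in the sources used here.

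**Figure D1:**
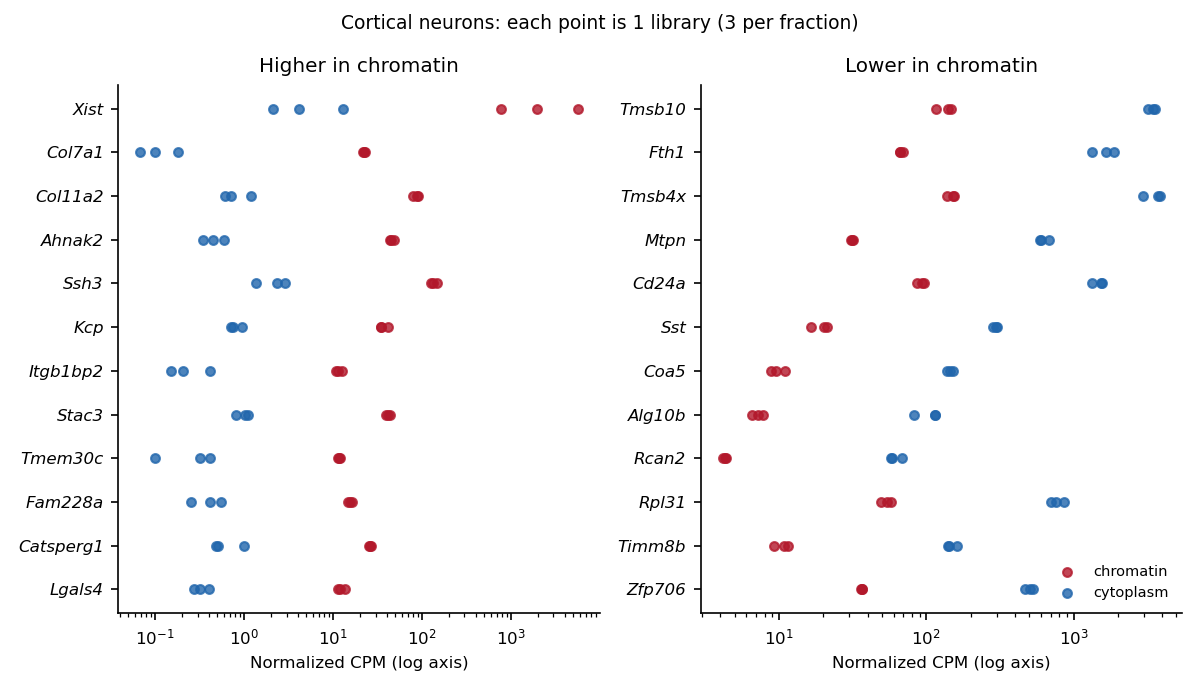
Normalized CPM on a log axis for the 12 genes with the largest excess in chromatin (left) and the 12 with the largest deficit (right). Both were taken among called genes that passed the limits on level, separation of the fractions, symbol and same-strand overlap. Each point is 1 of 3 chromatin (red) or 3 cytoplasmic (blue) libraries. No gene has overlapping groups, and Xist spreads from 766 to 5623 CPM in chromatin.

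The 8 called genes per direction with the highest mean TPM came next. The chromatin side held Ptprs (2221 TPM in chromatin against 161 TPM in cytoplasm), a receptor phosphatase of the synapse, and Sptan1 (2041 against 155 TPM), the alpha chain of spectrin. It also held Pfkp (1964 against 37.7 TPM), the platelet isoform of the glycolytic enzyme phosphofructokinase, Flna (1631 against 39.5 TPM), which encodes the actin crosslinker filamin A, and Ewsr1 (1454 against 204 TPM), an RNA-binding protein of the FET family. A pair of entries of this rank lie within other genes: Mir5125 inside Srrm2, and the processed transcript Gm12940 over Sfpq. The cytoplasmic side held Tmsb10 (11376 TPM in cytoplasm against 914 TPM in chromatin), the neuronal alpha tubulin gene Tuba1a (10684 against 7415 TPM), Tmsb4x, the microtubule-destabilizing stathmin gene Stmn1 (5781 against 1701 TPM) and the ribosomal protein gene Rps29 (5730 against 919 TPM). The mitochondrially encoded mt-Co1 (11572 against 9811 TPM) and mt-Cytb (7749 against 6744 TPM) differed little in TPM, though both were called lower in counts (-1.18, SE 0.22, and -1.14, SE 0.22). For mt-Co3, which overlaps mt-Atp6, the count table holds 0 reads in chromatin and 17 in cytoplasm, while its TPM is 12593 and 20286.

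Genes of the cytosolic ribosome and of the respiratory chain were mostly lower in chromatin. All 81 tested cytosolic ribosomal protein genes were called lower, from -1.29 to -4.32, with a median of -3.30. They made up 0.676%, 0.748% and 0.707% of counts in the chromatin libraries against 5.17%, 5.74% and 4.85% in cytoplasm. The exact two-sided permutation p was 0.1, the smallest that 3 against 3 libraries allow. Rps20 was lowest, with 29.2, 32.6 and 31.1 CPM against 582, 693 and 577 CPM. Its reads overlap a small RNA gene, Gm24016. The fractions were far apart in all 3 replicates.

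Of 78 nuclear genes of the respiratory chain, 70 were lower and none higher (median -2.19), with the ATP synthase subunit gene Atp5e at -3.79 and the cytochrome oxidase subunit gene Cox6b1 at -2.45. Of 77 mitochondrial ribosomal protein genes, 50 were lower and 1 higher (median -1.39). That 1 was Mrps9, at 1.78. Translation factors gave 33 lower and 4 higher of 53 (median -1.33, but -0.42 in TPM). Tpt1, a translationally controlled growth protein, held 103, 114 and 110 CPM in chromatin against 1982, 2236 and 1872 CPM in cytoplasm. The elongation factor gene Eef1a1 was at -2.43. Eif4g3, which encodes a large initiation scaffold, went the other way with 633, 636 and 666 CPM against 109, 107 and 136 CPM (2.46, SE 0.15). The 20 of 33 cytosolic chaperone genes that were called were all lower (median -1.27, Bag1 -3.21, Ppia -3.02). Of 39 proteasome genes 24 were lower (median -1.13, but -0.33 in TPM), and the large activator gene Psme4 alone was higher (2.33). V-ATPase subunits gave 10 lower of 18 and none higher (median -1.20, Atp6v1g1 -3.16). ER chaperone and translocation genes gave 23 lower and 1 higher of 43 (median -1.18, but -0.32 in TPM). The translocon subunit gene Sec61g was at -3.48 and the chaperone gene Hsp90b1 at 1.23.

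Glycolysis and tRNA charging genes went both ways. Of 17 glycolytic genes, 8 were lower and 4 higher (median -0.97, but -0.03 in TPM). Gapdh held 178, 207 and 191 CPM against 1202, 1388 and 1281 CPM (-2.75, SE 0.20). Pfkp held 2840, 2607 and 2687 CPM against 105, 96.9 and 142 CPM (4.56, SE 0.19, adjusted p = 2.3e-16), so that enzymes of 1 pathway lay on opposite sides. Of 22 cytosolic aminoacyl-tRNA synthetase genes, which load amino acids onto tRNA, 6 were higher and 2 lower (median 0.36), with Cars at 2.25 and Kars at -1.45.

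Transcripts of the mitochondrial genome are made outside the nucleus. They made up 1.44% ± 0.150 (SD, n = 3) of counts in chromatin and 2.51% ± 0.112 (SD, n = 3) in cytoplasm, and mt-Co1 was higher in the nucleoplasm than in either (23921, 22518 and 25081 CPM against 4711, 5026 and 4111 in chromatin and 10131, 10795 and 10453 in cytoplasm). Of 13 tested, 6 were lower and none higher in chromatin (median -1.14). The part of carry-over between fractions in the other results was not tested.

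Cytoskeletal genes went both ways. Of 14 tubulin genes, 12 were lower and 1 higher (median -1.47, but -0.48 in TPM). That 1, Tuba8, rests on 12 reads in chromatin and 1 in cytoplasm. Of 56 actin and actin-binding genes, 32 were lower and 6 higher (median -1.35). Actb held 623, 690 and 728 CPM in chromatin against 2570, 2990 and 3032 CPM in cytoplasm, and 8 of the 9 Arp2/3 subunits, which nucleate branched actin, were lower (median -1.73). Spectrins and ankyrins, the long proteins of the membrane skeleton and axon initial segment, gave 4 higher and none lower of 8 (median 1.37). Sptbn4, which overlaps Gm20479, held 349, 366 and 373 CPM against 42.7, 55.2 and 64.1 CPM (2.75, SE 0.23). The grouping by subunit in this and the following paragraphs was made after the values were seen.

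Among 37 microtubule-associated genes 8 were higher and 13 lower (median -0.25, but 0.0207 with library totals alone and 0.52 in TPM). All 4 stathmins were lower (median -2.32), as was the end-binding gene Mapre2 (-2.98), while the plus-end linker gene Clip1 was higher (2.16). Kinesin and dynein motor genes, mitotic kinesins included, gave 25 higher and 8 lower of 53 (median 0.82), with the mitotic kinesin gene Kif20b highest at 2.95. Of 11 kinesin heavy chains of transport, 6 were higher and 2 lower (median 1.03). The heavy chain gene of dynein, Dync1h1, held 1136, 1090 and 1170 CPM in chromatin against 194, 222 and 284 CPM in cytoplasm. Its light chain partner Dynll1 held 72.3, 78.4 and 72.7 CPM against 532, 575 and 513 CPM. Within 1 motor complex the 2 transcripts therefore lay on opposite sides, with log2 fold changes of 2.28 (SE 0.25) and -2.86 (SE 0.16). Over 8 dynein light chains and small dynactin subunits, 6 were lower and none higher (median -1.96), and over 4 larger subunits 3 were higher and none lower (median 1.47). The kinesin gene Kif1a, a carrier of synaptic vesicle precursors, held 1386, 1300 and 1330 CPM against 255, 314 and 377 CPM (2.08, SE 0.44).

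Receptor and channel genes of the synapse split by family. Of 18 ionotropic glutamate receptor genes, which carry fast excitation, 13 were higher in chromatin and none lower (median 1.55). All 4 AMPA receptor genes were higher (median 1.96), as were 3 of 5 kainate receptor genes and 5 of 7 NMDA receptor genes. Gria2, which sets the calcium permeability of AMPA receptors and whose reads overlap Gm25749, held 1201, 1112 and 1217 CPM in chromatin against 180, 140 and 170 CPM in cytoplasm (2.85, SE 0.16, adjusted p = 1.2e-13). It was 731, 711 and 641 CPM in nucleoplasm. The obligate NMDA receptor subunit gene Grin1 held 211, 222 and 222 CPM against 70.2, 90.8 and 103 CPM (1.31, SE 0.23). Both genes had separate groups. GABA-A and glycine receptor genes, which carry inhibition, showed 2 higher and 7 lower of 16 (median -0.70). The glycine receptor gene Glra2 held 20.9, 19.7 and 20.1 CPM in chromatin against 122, 92.1 and 110 CPM in cytoplasm (-2.42, SE 0.16). Metabotropic receptor genes gave 3 higher and 1 lower of 10, with Grm7 at 1.77 and Gabbr2 at -1.79.

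Voltage-gated sodium and calcium channel genes also divided by subunit, with 15 higher and 6 lower of 30 (median 1.04). Of 13 pore-forming subunits, 11 were higher and none lower (median 2.23). Cacna1b, the pore of the N-type calcium channel of nerve terminals, held 567, 562 and 582 CPM in chromatin against 102, 115 and 146 CPM in cytoplasm. Of 13 tested accessory beta and gamma subunits, 2 were higher and 6 lower (median -0.83). These groups do not cover all 30 genes, and the accessory subunit gene Cacna2d3, in neither group, was higher (1.38). Cacng4, a gamma subunit that also escorts AMPA receptors, was at -1.73 (SE 0.13). Potassium channels and their partners showed 10 higher and 14 lower of 51 (median -0.15, a sign that turned to 0.11 with library totals alone and to 0.24 in TPM). Kcnip4 was highest at 4.54, with 245, 245 and 269 CPM against 12.4, 9.06 and 11.3 CPM, but its TPM log2 fold change was 0.27. The glial inward rectifier gene Kcnj10 was lowest at -2.75.

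Of 51 synaptic vesicle and SNARE genes, 8 were higher and 19 lower (median -0.35, but 0.06 in TPM). Among the lower genes, Vamp2, the vesicle SNARE, held 133, 141 and 132 CPM against 850, 930 and 897 CPM (-2.72, SE 0.14), and Cplx2, which clamps the SNARE complex, held 53.6, 60.8 and 58.4 CPM against 463, 517 and 544 CPM (-3.14, SE 0.28). Among the 8 higher genes, the vesicle priming gene Unc13b held 363, 342 and 367 CPM against 25.2, 25.2 and 28.7 CPM (3.76, SE 0.14, adjusted p = 6.5e-17), Unc13a was at 2.50 and the scaffold gene Pclo at 2.38.

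Postsynaptic scaffolds and kinases gave 13 higher and 8 lower of 41 (median 0.24). The scaffold gene Dlgap4 held 1013, 1111 and 1116 CPM against 341, 404 and 431 CPM (1.46), and the small calmodulin-binding protein gene Nrgn was at -2.83. Of 65 synaptic adhesion genes, 24 were higher and 8 lower (median 0.19). Ptprd, which organizes synapses from the axonal side, held 1173, 1137 and 1302 CPM against 115, 98.7 and 127 CPM (3.41, SE 0.17), and the postsynaptic adhesion gene Lrrtm2 was at -1.96. Of 61 axon guidance and neurotrophin genes, 15 were higher and 8 lower (median 0.09). The Robo3 value of 4.01 rests on 19 cytoplasmic reads and was 4.71 without cytoplasm replicate 3. The 23 tested clustered protocadherins, whose variable exons give neurons distinct surfaces, had 7 lower and none higher (median -0.59, but 0.28 in TPM).

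RNA processing lists differed among themselves. Of 42 SR protein and CLK kinase genes, which steer splice site choice and are known for introns that stay in the nucleus, 30 were higher and none lower (median 1.77 in counts and 2.79 in TPM). Clk1, a kinase of SR proteins, held 367, 350 and 371 CPM in chromatin against 32.6, 21.5 and 27.2 CPM in cytoplasm (3.74, SE 0.23). Srrm2, a scaffold of nuclear speckles that contains Mir5125, held 1189, 1218 and 1237 CPM against 123, 119 and 171 CPM (3.14, SE 0.25). The list made up 1.90%, 1.82% and 1.87% of chromatin counts and 0.537%, 0.479% and 0.510% of cytoplasmic counts.

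The core spliceosome was divided: 14 of 61 genes were higher and 23 lower (median -0.43, but 0.25 in TPM). All 14 Sm and LSm genes, whose small proteins ring the spliceosomal RNAs, were lower (median -2.36), with Snrpd3 at 17.9, 22.1 and 19.8 CPM against 182, 183 and 162 CPM. Prpf39, a U1 snRNP factor that overlaps Gm25970, held 263, 235 and 258 CPM against 18.1, 11.6 and 13.7 CPM (4.13, SE 0.23). Sf3b1 (2.61) and Snrnp70 (2.28) were also higher. Factors of the exosome, export and surveillance gave 17 higher and 6 lower of 38 (median 0.62), with Zfc3h1, a partner of nuclear RNA decay, at 3.82 and the small export factor gene Nxt1 at -1.83. The hnRNP genes gave 4 higher and 8 lower of 32 (median -0.08, but 0.18 with library totals alone), with Taf15 at 1.98 and Hnrnpab at -2.55. Neuronal RNA-binding regulators gave 8 higher and 5 lower of 46 (median 0.14), with Nova2 at -1.47.

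Of 89 histone modifier and chromatin remodeler genes, 39 were higher and 5 lower (median 0.87). The methyltransferase gene Kmt2a held 332, 316 and 347 CPM against 58.0, 56.5 and 82.2 CPM (2.34, SE 0.17). The remodeler gene Smarca1 was highest, at 99.5, 87.7 and 92.7 CPM against 13.2, 9.31 and 12.5 CPM (3.00), and Brd2 was lowest (-1.55). Of 41 transcription factor genes of cortical projection neurons, 5 were higher and 17 lower (median -0.77, but -0.03 in TPM). Zbtb18, a repressor with the highest mean TPM of that list, was at -1.69 in counts but -0.03 in TPM. Sox11 was at -2.94 and -0.38, and Zfpm2 at 1.79 and 0.55.

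Activity-induced transcripts were more often lower than higher in chromatin, with 26 lower and 3 higher of 50 (median -1.22, but -0.17 in TPM). Jund was lowest, with 10.9, 15.3 and 13.8 CPM against 88.3, 141 and 149 CPM (-3.24, SE 0.26). Npas4, a neuron-specific factor induced by calcium entry, went the other way with 66.7, 73.7 and 74.8 CPM in chromatin against 12.1, 13.1 and 20.2 CPM in cytoplasm (2.24, SE 0.26). Nr4a1 was also higher (1.93, SE 0.31), with separate groups. Neuropeptide and granule genes gave 14 lower and 1 higher of 25 (median -1.23, but -0.32 in TPM). Sst, the marker peptide of an interneuron class, held 16.5, 21.2 and 20.2 CPM against 282, 299 and 302 CPM. Reln, a large extracellular glycoprotein that guides cortical layering, was the 1 higher member, at 1.42 (SE 0.33).

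Of 49 tested collagen and laminin genes, the extracellular matrix chains, 35 were higher and none lower. Their median was the highest of the 37 lists in counts (2.20), but in TPM it was 1.38, below SR and CLK genes (2.79), surveillance factors (1.85) and histone modifiers (1.73). Their median exon number was 48. Basement membrane chains were among them, with Col4a1 at 117, 122 and 120 CPM in chromatin against 13.0, 16.2 and 17.0 CPM in cytoplasm (2.96, SE 0.24) and Lama5 at 2.75. Of 10 tested markers of fibroblasts and mural cells, which make matrix, 4 were higher and 3 lower (median 0.03), and the 12 markers summed to 21.8 to 24.1 TPM in chromatin and 20.1 to 24.3 TPM in cytoplasm. The part of those cells in the matrix values was not tested.

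**Figure D2:**
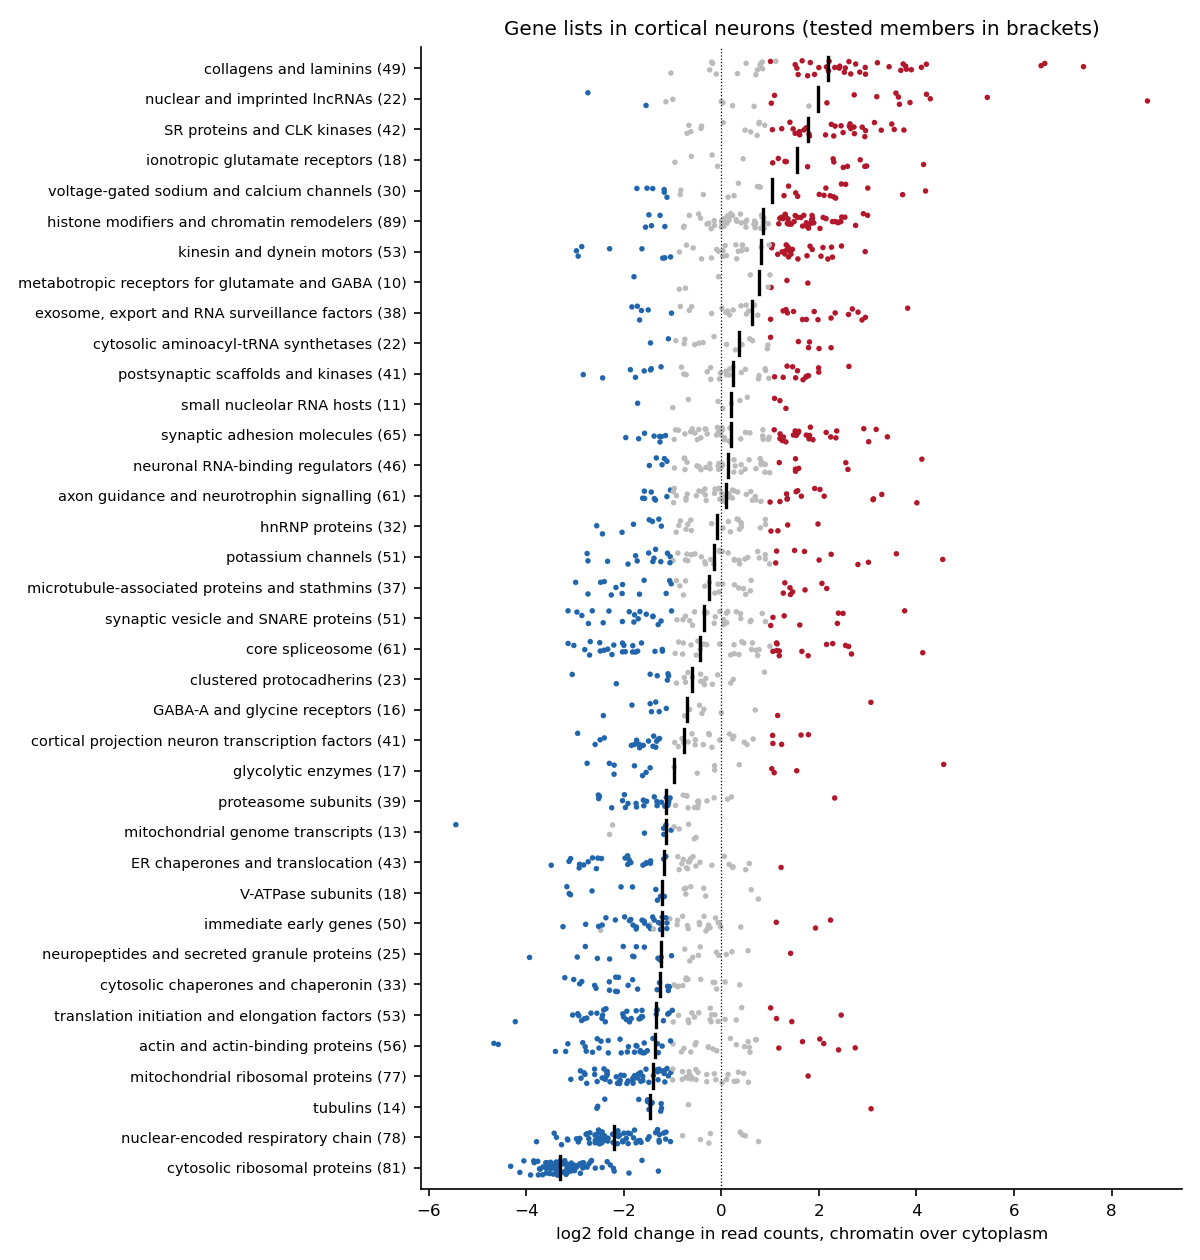
Log2 fold change in counts (chromatin over cytoplasm) of every tested member of 37 gene lists, ordered by the list median (black bar). Red points were called higher in chromatin, blue lower and grey neither; medians run from -3.30 in cytosolic ribosomal proteins to 2.20 in collagens and laminins.

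Noncoding RNAs known from the nucleus or from imprinted domains were more often higher in chromatin. Of 22 tested nuclear and imprinted lncRNAs, 13 were higher and 2 lower. The median was 1.98, or 2.17 without members that held at most 3 counts over the group in both fractions. Malat1, a nuclear speckle RNA, held 819, 734 and 820 CPM in chromatin against 200, 150 and 179 CPM in cytoplasm (2.17, SE 0.21), and the paraspeckle RNA Neat1 held 22.3, 26.0 and 23.1 CPM against 4.16, 3.37 and 3.33 CPM (2.72, SE 0.40). Dlx6os1, an antisense RNA of the interneuron gene pair Dlx5 and Dlx6, was lower, with 3.89, 3.63 and 3.12 CPM in chromatin against a mean of 23.6 CPM in cytoplasm (-2.73, SE 0.26). Over all annotated classes of long noncoding RNA the share of counts was 2.06%, 2.14% and 2.53% in chromatin and 0.658%, 0.629% and 0.661% in cytoplasm. Without Meg3 and Xist, left out after their values were seen, the share was 0.983% ± 0.0134 (SD, n = 3) in chromatin and 0.608% ± 0.0125 (SD, n = 3) in cytoplasm, so these genes carried over 0.5 of the chromatin value. Among single classes, of 295 tested lincRNA genes, 93 were higher (31.5%) and 45 lower (15.3%; median 0.56). Of 460 antisense genes 116 were higher (25.2%) and 82 lower (17.8%; median 0.15). Over all genes tested the shares were 26.2% and 24.4%, so antisense genes were not more often higher.

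Loci of small RNAs were counted too, although only RNA longer than 200 nt was taken and the longest microRNA locus called higher spans 124 bases. A count there is not a measure of the mature small RNA. Of 254 tested snoRNA genes, most of which lie inside introns of host genes, 189 were higher in chromatin (74.4%) and 3 lower (median 2.40). Another gene of the table on the same strand overlaps 209 of the 254 tested and 158 of the 189 called higher, a similar share. All 27 tested sense-intronic genes overlap such a gene, and 17 were higher and none lower. Of 176 microRNA loci, 73 were higher and 39 lower (median 0.49). Mature sequences were found by symbol for 60 of the 73. The 9 loci shown here were those that share a seed (bases 2 to 8 of the mature RNA, in capitals, which pair with targets) with another locus called higher. They were chosen for being called higher, so they say nothing of other members of their families. Of the 5 seeds shared in this way, 4 are shown, and the fifth belongs to the opposite arms of the let-7 loci. The sequences are from RefSeq (GRCm38.p6).

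miR-93-5p: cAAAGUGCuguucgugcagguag
miR-106b-5p: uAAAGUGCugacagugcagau
miR-20a-5p: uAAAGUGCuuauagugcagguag
miR-25-3p: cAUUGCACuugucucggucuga
miR-92a-3p: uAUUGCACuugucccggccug
miR-29b-3p: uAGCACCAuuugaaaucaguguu
miR-29c-3p: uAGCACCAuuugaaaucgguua
let-7b-5p: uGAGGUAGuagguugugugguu
let-7c-5p: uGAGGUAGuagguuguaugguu

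The first 2 families came from a pair of clusters. Mir93 (chr5:138165523-138165610, minus strand), Mir106b and Mir25 lie inside the replication helicase gene Mcm7, and Mir20a and Mir92-1 (chr14:115044427-115044506, plus strand) lie inside Mir17hg. Mir93 held 1.84, 1.53 and 1.87 CPM in chromatin, or 105 reads, and no read in cytoplasm, which makes it at least 32.9-fold higher when 3 counts over the cytoplasmic group are taken as the floor. By the same floor Mir106b, with 31 reads against 0, was at least 9.71-fold higher. Mir25 held 5.22, 4.90 and 5.14 CPM against 0.0683, 0.101 and 0.0456 CPM, with 4 cytoplasmic reads in all, and Mir92-1 held 1.43, 0.971 and 1.10 CPM against 0.205, 0.151 and 0.182 CPM. Mir20a counted 32 reads against 3.

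The AGCACCA seed belongs to Mir29b-2 and Mir29c, neighbours on chromosome 1. Mir29c (chr1:195037547-195037634, plus strand) held 12.1, 11.6 and 10.8 CPM against 0.887, 0.352 and 0.866 CPM (log2 fold change 4.04, SE 0.40, adjusted p = 5.0e-09). Mir29b-2 was at 4.44. The GAGGUAG seed of the let-7 family belongs to Mirlet7b (chr15:85707319-85707403, plus strand), with 4.81, 5.11 and 5.86 CPM against 0.614, 0.554 and 0.593 CPM, and to its neighbour Mirlet7c-2, at 2.77. No library of one fraction reached the other in these loci. The 4 loci outside Mcm7 and Mir17hg overlap no other gene of the count table on their strand.

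Among 15605 tested protein-coding genes, the fold change went with the number of exons. Background shares there were 25.2% higher and 24.6% lower. Of 395 genes with 1 exon, 5.82% were higher and 62.5% lower (median -1.68). The medians then ran through -1.37 at 2 exons, -0.95 at 3 to 5, -0.32 at 6 to 10, 0.53 at 11 to 20 and 1.32 at 21 to 40. Of 307 genes with over 40 exons, 82.4% were higher and 3 genes lower (median 2.11). In TPM the same bins ran from -0.31 to 2.33 without a break in order. Genes with over 20 exons made up 27.3% ± 0.340 (SD, n = 3) of counts in chromatin and 10.2% ± 0.737 (SD, n = 3) in cytoplasm.

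Exon number goes with transcript length, so the bins were also split by exonic length. Among genes with over 4000 exonic bases, those with up to 5 exons had a median of -0.99, those with 6 to 15 exons -0.03 and those with over 15 exons 1.21. Among genes with 2000 to 4000 exonic bases the medians were -1.04, -0.02 and 1.14. Span on the genome gave a weaker order, from -1.74 at up to 2000 bases to 0.46 at 50000 to 100000 bases, and stayed between 0.40 and 0.44 up to 500000 bases, with 1.00 above that. These are descriptions over genes, which are not replicates. The medians by exon number had the same order in the other cell types. They spanned -0.71 to 1.83 for mNPC and -0.58 to 1.20 for mESC, and the difference from the range in neurons was not tested.

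**Figure D3:**
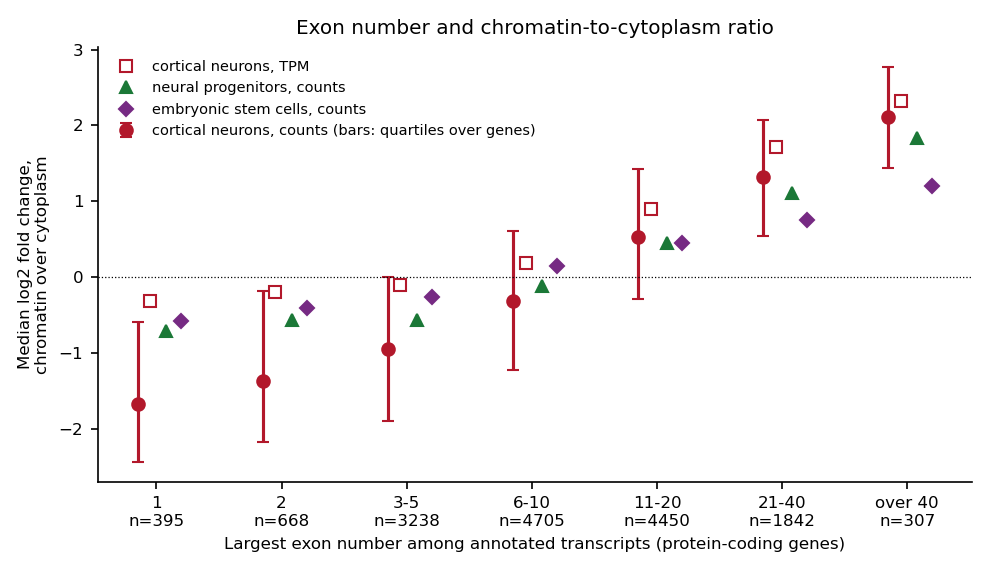
Median log2 fold change (chromatin over cytoplasm) of protein-coding genes by the largest exon number of their annotated transcripts, for cortical neurons in counts (filled circles, bars from the first to the third quartile over genes) and TPM (open squares), and for neural progenitors and embryonic stem cells in counts. The neuron median in counts rises from -1.68 at 1 exon to 2.11 at over 40 exons.

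Counts and TPM gave different sizes for many genes. The deposited gene lengths equal the distance from start to end. Whether reads in introns were counted is not given in the submitters' notes. Over 11145 genes with a mean of at least 5 TPM, the log2 fold change in counts was lower than that of log2(mean TPM + 1) by a median difference of -0.73. In 114 protein-coding genes that span over 500 kb the median difference was 0.14. Of 2919 genes called higher in counts at that level, 2828 (96.9%) also had a TPM log2 fold change of at least 1. Of the 48 such genes that span over 500 kb, 31 did, and 9 were below 0 in TPM. There were 17 below 0 among all 2919. The units agreed less often in the other direction: of 3109 genes called lower in counts, 1624 had a TPM log2 fold change of at most -1, and 111 were above 0.

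The 9 include genes of the synapse. Nlgn1, a neuroligin that builds excitatory synapses, was at 2.15 in counts and -0.08 in TPM, the leucine-rich repeat receptor gene Lingo2 at 2.32 and -0.38, the neuregulin gene Nrg3 at 1.16 and -0.95, the scaffold gene Dlgap1 at 1.56 and -0.50, and the channel modulator gene Fgf14 at 1.87 and -0.24. Kcnip4 had the largest difference among the 114 genes, with 4.54 in counts and 0.27 in TPM. In contrast the SR and CLK genes were higher by both units, and 29 of the 30 called had a TPM log2 fold change of at least 1.

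**Figure D4:**
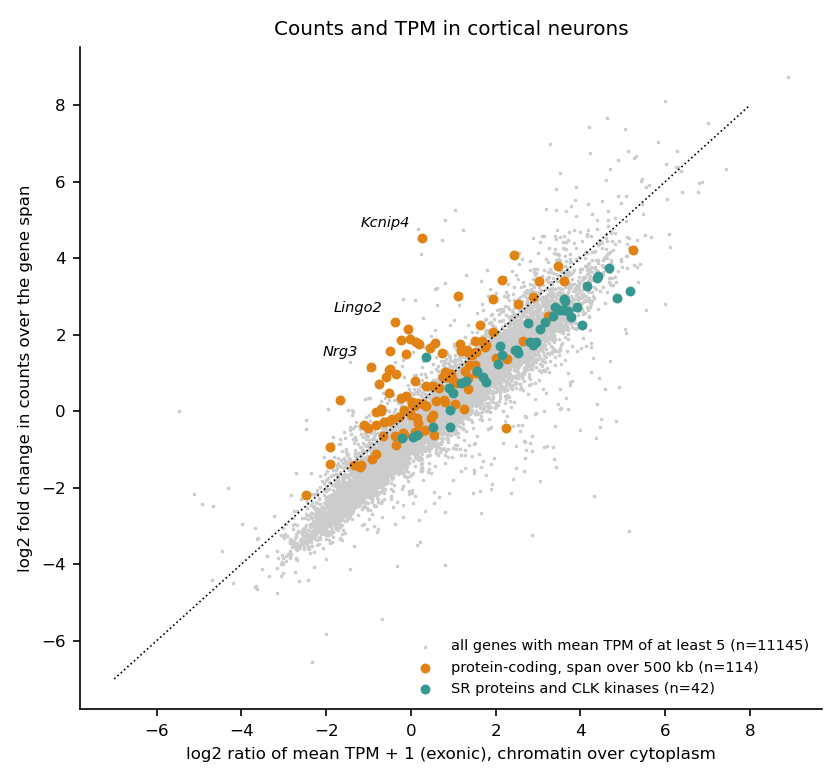
Log2 fold change in counts over the gene span (vertical) against the log2 ratio of mean TPM + 1 (horizontal), chromatin over cytoplasm, for 11145 genes with a mean of at least 5 TPM. The dotted line marks equal values; most genes lie under it, the 114 protein-coding genes over 500 kb (orange) have a median difference of 0.14, and the SR and CLK genes (teal) have list medians of 1.77 in counts and 2.79 in TPM.

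The neurons were then compared with the other 2 cell types by testing, in the same fit, whether the log2 fold change between fractions differed. Against mNPC, 1400 genes had a higher ratio in neurons (7.68%) and 2072 a lower one (11.4%). Against mESC, 2860 were higher (15.7%) and 4539 lower (24.9%), with a median difference over all genes of -0.30. Both comparisons use the same neuron libraries, so their values are given side by side. Fractions of another cell type can differ in purity, which was not tested. For the 13 tested transcripts of the mitochondrial genome, the list median was -1.14 in neurons, 0.12 in mNPC and 3.15 in mESC. Of these, 6 had a lower ratio in neurons against mNPC and 9 against mESC, and none a higher one. The part of such a difference between fractions in the values below was not tested.

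Ribosomal protein genes were less depleted from neuron chromatin than from that of mNPC: 42 of 81 had a higher ratio and none a lower one (median difference 1.02, the list medians being -3.30 in neurons and -4.25 in mNPC). Against mESC 15 of 81 were lower and none higher. Glycolytic genes were higher against both, with 13 of 17 against mNPC and 11 of 17 against mESC and 1 lower in each, as were aminoacyl-tRNA synthetases, with 12 of 22 and 21 of 22 and none lower. Spliceosome genes (33 higher and 2 lower of 61), surveillance factors (22 and none of 38) and histone modifiers (38 and 6 of 89) had higher ratios against mESC.

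Neuronal membrane and secreted proteins had lower ratios in neurons than in mESC. This held for 34 of 51 potassium channel genes with none higher, 34 of 65 adhesion genes with 1 higher, 41 of 61 axon guidance genes with 1 higher, 10 of 16 GABA-A and glycine receptor genes with none higher, and 16 of 25 neuropeptide genes with none higher. ER chaperone and translocation genes did so too, with 33 lower and 1 higher of 43. Against mNPC, 22 of 23 clustered protocadherin genes were lower and none higher (median -0.59 in neurons and 1.46 in mNPC). Ionotropic glutamate receptor genes gave 3 lower and none higher of 18 against mNPC and 8 lower and 1 higher against mESC. No level in mNPC or mESC was required of the genes in these lists. The SE of the difference from mESC was 1.00 for Glra2 and 2.21 for Sst, so such sizes are uncertain.

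**Figure D5:**
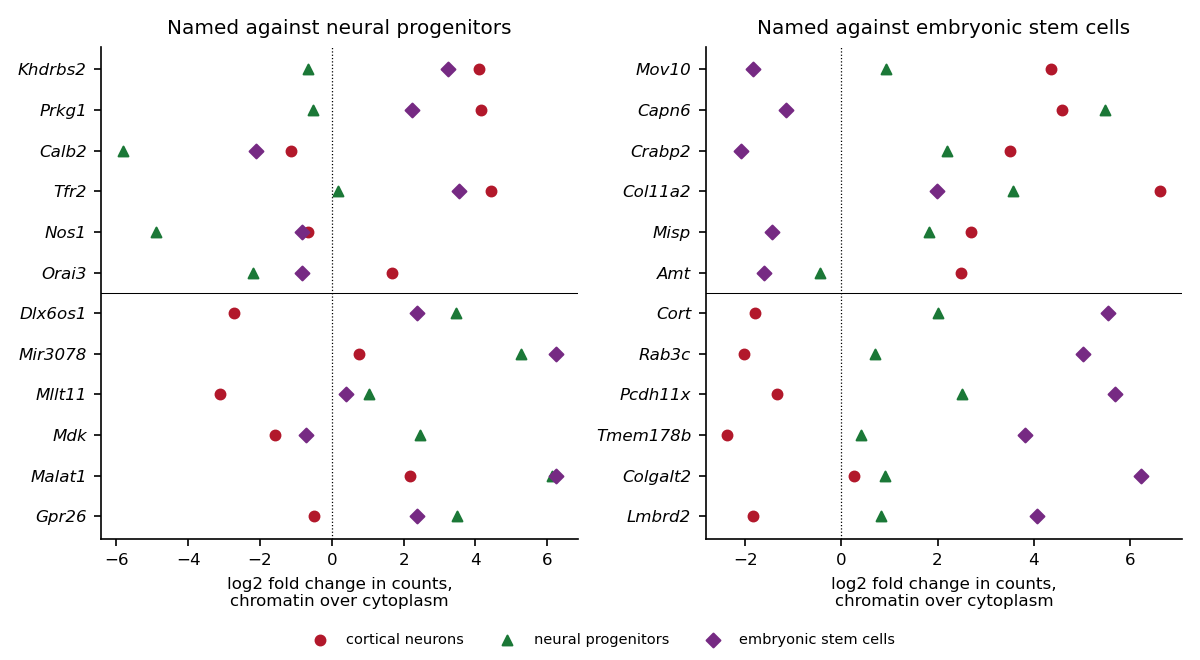
Log2 fold change in counts (chromatin over cytoplasm) in the 3 cell types for the 6 genes in each direction that differ most between neurons and progenitors (left) or stem cells (right). Genes above the line have a higher ratio in neurons; Malat1 is at 2.17 in neurons against 6.13 and 6.24 in the other cell types.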

How the data were processed

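Polyadenylated RNA of 27 libraries was deposited as 2 tables. The first holds read counts per gene made by the authors, and its 9 chromatin columns, deposited under headers with the abbreviation Chr, are whole-number counts too. The second holds TPM per gene, per the file headers. The submitters' processing notes name build mm10, kallisto 0.43.0, featureCounts and STAR. For these tools, order, options, strand setting and annotation are not given in the sources used. All 37332 deposited gene lengths equal end minus start plus 1, so introns lie inside them. Symbols, biotypes and exon numbers came from GENCODE M21 (35533 genes matched).

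edgeR 4.0.16 (R 4.3.3) kept 18226 genes by filterByExpr, scaled by TMM and fitted all 27 libraries with 1 mean per group. The quasi-likelihood test was adjusted by Benjamini-Hochberg over all genes. SE is the log2 fold change over the square root of F. A gene was called at an adjusted p under 0.05 and a log2 fold change of at least 1. The test was also run on simulated counts. Far fewer genes were changed there than were called here, so that run does not cover a difference of this breadth. TPM folds are log2(mean TPM + 1). Alternatives used limma 3.58.1 and DESeq2 1.42.0. P-values rest on the spread between the 3 biological replicates of a group, pooled over all 27 libraries fitted. They do not rest on the neuron libraries alone. A fit of only the neuron chromatin and cytoplasm libraries called 4343 genes higher and 4158 lower in chromatin. Every replicate pair differed by more than sampling noise. Same-numbered chromatin and cytoplasm libraries deviated together (correlations 0.46, 0.50 and 0.32), so replicate numbers pair the samples; the fit reported has no block.

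Genes were named by a rule: the 12 called genes with the largest change per direction (at least 10 CPM in the higher group, separate libraries, no predicted or pseudogene symbols, no same-strand overlap), the 8 with the highest TPM per direction, the most abundant and most changed members of lists, and, under the limits of the first, the 6 genes per direction with the largest differences between cell types. Others (subunit groups, microRNA families, long genes and further list members) were chosen after their values were seen. The members and lists were chosen with earlier results of these data known. Some single genes are not reported here.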

Additional observations from a re-analysis of the deposited data

Results flagged for a closer look

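The chromatin-to-cytoplasm ratio differed between neurons and another cell type, by a test of the difference itself, in 1400 genes with a higher and 2072 with a lower ratio against mNPC, and in 2860 with a higher and 4539 with a lower ratio against mESC (edgeR quasi-likelihood test, Benjamini-Hochberg adjustment). Given here are the 24 called genes with the largest differences among those with a mean of at least 10 CPM in the higher neuron fraction, separate neuron fractions, no predicted or pseudogene symbol and no overlap with another tested gene on the same strand, as differences of log2 fold changes.

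Against mNPC the genes with a higher ratio in neurons were Khdrbs2 (4.78), a splicing regulator, Prkg1 (4.69), a cGMP-dependent kinase, Calb2 (4.68), an interneuron calcium buffer, Tfr2 (4.25), Nos1 (4.25), which makes nitric oxide, and Orai3 (3.89). Khdrbs2 held 277, 289 and 294 CPM in neuron chromatin against 16.8, 16.1 and 16.9 CPM in cytoplasm, but its TPM log2 fold change was 0.24. In TPM the sign of the difference turned for Khdrbs2 (-0.78), Prkg1 (-0.32, without the filter), Calb2 (-0.0727) and, with a pseudocount of 0.1, Nos1 (-0.0012). Calb2 was lower in chromatin in both cell types, at -1.13 in neurons and -5.82 in mNPC. Those with a lower ratio were Dlx6os1 (-6.19), the microRNA locus Mir3078 (-4.51), Mllt11 (-4.16), Mdk (-4.02), a secreted growth factor, Malat1 (-3.97) and Gpr26 (-3.96, but 0.35 in TPM). Mllt11 held 136, 134 and 130 CPM in neuron chromatin against 1178, 1200 and 1116 CPM in cytoplasm, and its log2 fold change was -3.13 in neurons and 1.04 in mNPC. Malat1 was higher in chromatin in both, at 2.17 and 6.13. No level was required in mNPC. The SE of the difference was 1.43 for Calb2, 1.38 for Nos1, 1.29 for Mir3078 and 1.27 for Gpr26.

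Against mESC the genes with a higher ratio in neurons were Mov10 (6.21), an RNA helicase, Capn6 (5.73), Crabp2 (5.59), which carries retinoic acid, Col11a2 (4.65), Misp (4.14) and Amt (4.08). Mov10 held 88.4, 87.4 and 88.3 CPM in neuron chromatin against 3.89, 4.18 and 4.65 CPM in cytoplasm, and its log2 fold change was 4.37 in neurons and -1.84 in mESC. Those with a lower ratio were Cort (-7.32), a neuropeptide gene, Rab3c (-7.05), a vesicle GTPase, Pcdh11x (-7.02), Tmem178b (-6.18), Colgalt2 (-5.96, but 0.91 in TPM with adjusted p = 0.00015 by limma) and Lmbrd2 (-5.89). Rab3c held 58.9, 59.2 and 61.2 CPM in neuron chromatin against 268, 196 and 266 CPM in cytoplasm. Its log2 fold change was -2.03 in neurons and 5.03 in mESC (SE of the difference 1.03). That SE was 1.25 for Colgalt2, and no level was required in mESC.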

How the results depend on the processing

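In counts, no alternative moved the calls of chromatin against cytoplasm by 1.5 times: 4343 to 6441 genes were higher and 3597 to 6201 lower under other scalings, filters, DESeq2, adjusted p alone, the replicate block or the 6 libraries alone. Leaving out genes that overlap another on the same strand gave 3870 and 3690. Leaving out 1 library gave 4466 to 4826 higher and 4365 to 4573 lower. Library totals alone moved the median of all genes to 0.24. With the replicate block the counts were 4876 and 4504, and it changed no call of a named gene, nor did leaving out any 1 library. Of 145 named genes, 3 lost their call with library totals alone, and 26 lost it in TPM with a pseudocount of 1, 22 with 0.1 and 28 without the filter. In limma-trend on TPM, higher calls were 8828 with a pseudocount of 1, 11194 with 0.1 and 8855 without the filter, and lower calls were 2028, 2418 and 2026; more genes were tested there. Against mNPC, higher calls were 2640 by adjusted p alone, 2145 in TPM and 2146 without the filter, and lower calls were 3190, 3272 and 3211, and 3554 with a pseudocount of 0.1. Leaving out 1 library gave 1278 to 1647 higher and 1780 to 1971 lower against mNPC, and 2687 to 2875 and 4312 to 4505 against mESC.

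Signs reversed in TPM for Pcdhgc4 (1.26, 1.27 with a pseudocount of 0.1), Prkg1 (-0.43) and, as differences from mNPC, Khdrbs2 (-0.78 and -1.63), Prkg1 (-0.32), Calb2 (-0.0727), Nos1 (-0.0012) and Gpr26 (0.35 and 0.0221), and from mESC Colgalt2 (0.91 and 0.50). List medians reversed, in TPM with a pseudocount of 1 and 0.1, for potassium channels (0.24 and 0.30), vesicle genes (0.0558 and 0.0585), microtubule-associated genes (0.52 and 0.54), hnRNPs (0.25 and 0.25), the core spliceosome (0.25 and 0.26) and protocadherins (0.28 and 0.50). With library totals alone potassium channels (0.11), microtubule-associated genes (0.0207) and hnRNPs (0.18) reversed. All genes tested had a median of 0.59 in TPM with a pseudocount of 1 and 0.24 with library totals alone. The list medians named here lay below those values, as they lay below the 0.00 of all genes in counts. The causes were not tested. Genes with few cytoplasmic reads, such as Col7a1 and the microRNA loci, have uncertain fold sizes at this depth.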

Other observations

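Markers of the cell types in the culture were split between fractions in different ways. Of 15 markers listed for excitatory neurons, which include genes of neurons in general, 7 were lower in chromatin and none higher. Of 15 inhibitory neuron markers 8 were lower and 1 higher. Of 14 tested microglial markers, 10 were lower and 2 higher (median -1.83). Among 15 progenitor markers 5 were lower and 4 higher. The proliferation marker Mki67 was the highest of these, with 151, 144 and 156 CPM in chromatin against 14.6, 9.61 and 12.3 CPM in cytoplasm (log2 fold change 3.63, SE 0.20).

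Processed pseudogenes, which are copies of spliced mRNAs, were more often lower in chromatin, with 231 lower and 63 higher of 450 tested (median -1.99). Their reads cannot be told apart with certainty from those of their parent genes.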
